A study of Mus musculus with 10 samples.

Results

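Contacts in which both ends were captured promoter fragments were examined in promoter-capture Hi-C of mouse bone marrow cells. Each listed contact joins a promoter fragment that was captured (the bait) to some further HindIII fragment (the other end). A pair was counted as promoter-promoter when its other end was itself a bait in the list of the haematopoietic stem and progenitor cell (HSPC) libraries and the ends lay under 1 Mb apart. This held for 18,735 of the 88,624 listed pairs (21.1%). The farthest member spanned 999.993 kb and the nearest pair beyond the limit 1000.9 kb. The contrast was formed by the 65,086 pairs under 1 Mb whose other end was no bait. A bait is known here only through a listed pair, so a captured promoter with no listed pair counts among the other ends that are no bait.

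Promoter-capture Hi-C ligates crosslinked fragments that lay close together in the nucleus and then enriches ligation products that carry a promoter. Contacts between promoters are known from many tissues: active promoters gather in shared transcription compartments, repressed developmental promoters gather through Polycomb proteins, and cohesin with CTCF brings promoters at domain borders together. In blood formation such contacts have been described within Hox, histone and globin clusters.

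The libraries came from C57BL/6 mice, 2 biological replicates per group by the labels, and the age of the mice is not given in the sources used here. Bone marrow lineage negative cells, prepared with a lineage depletion kit and called HSPCs in the labels, were taken from wild-type mice (WT), from Npm1flox-cA/+;Mx1-Cre+ mice (Npm1c), from Flt3ITD/+ mice (Flt3-ITD) and from Npm1flox-cA/+;Flt3ITD/+;Mx1-Cre+ mice (double mutant, DM). Npm1c is a leukaemia mutation that sends nucleophosmin out of the nucleolus into the cytoplasm. Flt3-ITD, a duplicated stretch within the receptor gene, keeps a cytokine receptor active. Mx1-Cre is driven by an interferon-responsive promoter; no WT or Flt3-ITD mouse is labelled as carrying it, so Cre and the Npm1c allele cannot be told apart. The remaining group held WT bone marrow neutrophils from an isolation kit. Lineage-negative marrow is a mixture, and in such bulk libraries fewer cells of a type and weaker contacts per cell cannot be told apart. The files carry no RNA level, so cell type markers could not be checked.

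Several promoter sequences give the setting of the members described below. The 250 bases upstream of the RefSeq start (build GRCm38, which is mm10) are given for both ends of 4 pairs: Fignl1 with Zpbp and Smarca5 with Usp38, which scored high in all HSPC groups; H2bc9 with H4c6, the strongest histone pair; and Skap2 with Hoxa6, which scored high in DM. All 8 lie on the minus strand and are written 5′ to 3′ in the direction of transcription: Fignl1 at chr11:11808963-11809212, Zpbp at chr11:11462420-11462669, Smarca5 at chr8:80739460-80739709, Usp38 at chr8:81014907-81015156, H2bc9 at chr13:23543445-23543694, H4c6 at chr13:23551669-23551918, Skap2 at chr6:52012550-52012799, Hoxa6 at chr6:52208673-52208922. Capitals mark the letters CCAAT (the NF-Y motif), GGGCGG (the GC box) and TATAAA (the TATA box), searched on both strands; a GC box and a CCAAT box may share letters.
Fignl1: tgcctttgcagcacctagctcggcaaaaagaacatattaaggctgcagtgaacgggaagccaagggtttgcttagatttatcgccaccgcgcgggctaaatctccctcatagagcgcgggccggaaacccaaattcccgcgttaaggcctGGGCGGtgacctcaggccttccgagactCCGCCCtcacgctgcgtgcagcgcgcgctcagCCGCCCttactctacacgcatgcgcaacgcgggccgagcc
Zpbp: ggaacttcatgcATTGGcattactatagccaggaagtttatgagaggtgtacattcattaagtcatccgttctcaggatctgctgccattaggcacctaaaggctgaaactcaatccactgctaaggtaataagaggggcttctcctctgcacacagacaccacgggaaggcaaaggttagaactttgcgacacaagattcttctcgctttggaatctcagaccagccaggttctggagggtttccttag
Smarca5: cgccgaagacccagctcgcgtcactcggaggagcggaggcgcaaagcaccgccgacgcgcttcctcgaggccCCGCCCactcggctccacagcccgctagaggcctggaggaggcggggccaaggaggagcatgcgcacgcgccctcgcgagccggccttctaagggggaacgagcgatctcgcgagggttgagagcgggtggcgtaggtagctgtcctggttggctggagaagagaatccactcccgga
Usp38: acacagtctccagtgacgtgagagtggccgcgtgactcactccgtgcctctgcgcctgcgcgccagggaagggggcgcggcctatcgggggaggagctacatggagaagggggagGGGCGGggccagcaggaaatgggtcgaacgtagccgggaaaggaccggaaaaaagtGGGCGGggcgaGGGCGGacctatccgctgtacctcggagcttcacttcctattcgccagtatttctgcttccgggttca
H2bc9: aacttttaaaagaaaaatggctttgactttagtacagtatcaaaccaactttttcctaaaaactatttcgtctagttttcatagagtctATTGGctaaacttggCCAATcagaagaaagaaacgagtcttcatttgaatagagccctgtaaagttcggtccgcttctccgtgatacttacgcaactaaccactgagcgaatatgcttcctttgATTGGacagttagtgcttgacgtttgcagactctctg
H4c6: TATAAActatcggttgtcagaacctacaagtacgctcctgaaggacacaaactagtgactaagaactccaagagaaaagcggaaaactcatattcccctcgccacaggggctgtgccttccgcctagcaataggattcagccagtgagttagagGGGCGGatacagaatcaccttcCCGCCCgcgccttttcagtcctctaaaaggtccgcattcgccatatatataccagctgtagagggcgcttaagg
Skap2: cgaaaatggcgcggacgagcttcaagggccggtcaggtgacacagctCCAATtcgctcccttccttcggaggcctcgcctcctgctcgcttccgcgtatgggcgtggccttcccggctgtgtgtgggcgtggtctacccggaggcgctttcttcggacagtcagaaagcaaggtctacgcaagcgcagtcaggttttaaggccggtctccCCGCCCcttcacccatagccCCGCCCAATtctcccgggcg
Hoxa6: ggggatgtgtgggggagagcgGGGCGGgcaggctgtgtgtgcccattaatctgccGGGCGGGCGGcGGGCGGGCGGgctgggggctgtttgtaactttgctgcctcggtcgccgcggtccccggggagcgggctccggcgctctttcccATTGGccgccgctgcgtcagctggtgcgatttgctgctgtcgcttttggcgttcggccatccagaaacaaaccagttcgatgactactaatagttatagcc

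Fignl1, which encodes an ATPase of recombination repair, held 3 GC boxes in this window. Its partner Zpbp, a sperm protein gene, held 1 CCAAT match and no GC box. The Smarca5 window held 1 GC box and that of Usp38 held 3. H2bc9 held 3 CCAAT matches. H4c6 held 2 GC boxes and a TATA match. Skap2 held 2 of each of the CCAAT and GC box letters, and Hoxa6 held 5 GC boxes and 1 CCAAT match.

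Over all members, 6,854 of the 8,561 genes at a promoter-promoter end (80.1%) matched a RefSeq promoter. GGGCGG was found in 53.1% of them, against 42.7% of all 17,492 protein-coding promoters in the table. CCGGAAGT, the ETS letters, stood in 5.44% against 3.84%. TATAAA was less frequent, at 8.62% against 12.4%. CCAAT was found in 35.9% against 36.3%, and AGATAAG, the GATA letters, in 2.09% against 2.44%. Both strands were searched for each. Median GC content was 58.4% against 55.2%. The table of all promoters also holds genes that were not captured, and no test was made. For the 2,228 genes whose bait was in no promoter-promoter pair only 78.3% matched, under the share required here, so that comparison is void as a check. Its values were 48.7% for GGGCGG, 35.3% for CCAAT and a median GC content of 58.0%, each nearer to the members than to all promoters. For CCGGAAGT (3.56%), TATAAA (11.3%) and AGATAAG (2.41%) it was nearer to all promoters.

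The 18,735 pairs joined 9,349 of the 12,186 listed baits through 15,818 distinct links. In 13,023 pairs (69.5%) a protein-coding gene was assigned at both ends, and 678 had none at either end. The median distance was 200 kb, with quartiles at 107 and 339 kb, and the range began at 2.942 kb. The other-end fragments had a median length of 5,615 bp, against 2,632 bp in the pairs ending outside a bait. A median of 4 protein-coding genes lay between the ends, and only 5.17% of the pairs skipped no gene, against 9.45% of the other pairs. Most promoter-promoter contacts in the list therefore passed over at least 1 gene.

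A link can be listed from each of its ends, and 2,917 of the 15,818 links (18.4%) were. The 2 directions are separate entries with separate scores. In the libraries 87.8% to 93.9% of these links had scores within 1 log2 unit in the 2 directions. Tspyl4 with Rwdd1 scored 27.3 and 33.1 in the WT libraries from the Tspyl4 bait and 19.2 and 17.2 from the Rwdd1 bait. Adamts4 with Cfap126 scored 40.7 and 34.1 from the Adamts4 bait but only 8.57 and 6.31 from the Cfap126 bait. One direction can thus be several times the other within the same library.

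Promoter-promoter pairs were shared by more groups than other pairs. A pair was said to pass in a group when both libraries scored 5 or more, and every listed HSPC pair passed in at least 1 HSPC group. All 4 HSPC groups passed in 3,123 members (16.7%), against 8.81% of the pairs ending outside a bait. Exactly 1 group passed in 8,662 members (46.2%), against 58.0%. By group, DM passed in 10,613 members, Flt3-ITD in 9,748, WT in 9,347 and Npm1c in 8,225. DM alone passed in 3,184 members (17%, against 18.9% of the other pairs) and WT alone in 2,396 (12.8%, against 9.67%). Npm1c alone passed in 1,375 (7.34%, against 13.2%) and Flt3-ITD alone in 1,707 (9.11%, against 16.1%). The 3 mutants passed without WT in 894 (4.77%, against 5.43%).

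Among all passing pairs under 1 Mb, promoter-promoter pairs made up 31.2% in WT, 25.6% in DM, 23.2% in Npm1c and 22.7% in Flt3-ITD. WT passed the fewest pairs under 1 Mb, 29,942, and Flt3-ITD the most, 42,897. The number of reads behind each library is unknown.

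The share of listed pairs that scored 5 or more was compared within each library between the 2 classes. In WT, 67.1% and 61.9% of the promoter-promoter pairs scored 5 or more, against 50.9% and 43.8% of the other pairs. In Npm1c the shares were 55.1% and 62.0%, against 51.7% and 61.7%. In Flt3-ITD they were 66.9% and 62.7%, against 63.6% and 64.3%. In DM they were 68.6% and 69.9%, against 59.3% and 60.5%. At this threshold the classes were far apart in both WT libraries, separate in both DM libraries and nearly level in the single mutants.

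**Figure D1:**
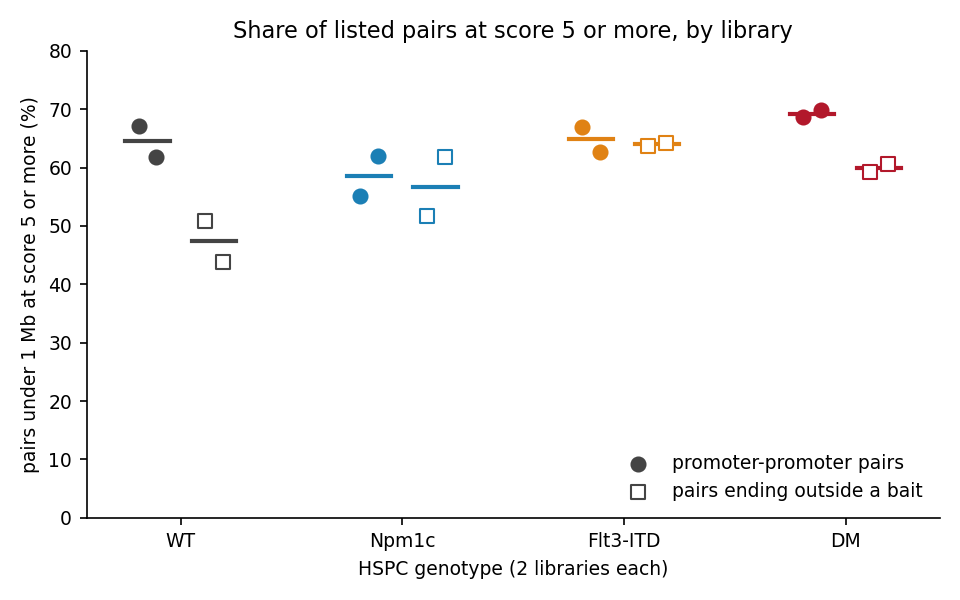
Percent of listed pairs under 1 Mb at score 5 or more in each HSPC library; filled circles are promoter-promoter pairs, open squares pairs ending outside a bait, and bars the mean of 2 libraries. The classes stand apart in WT (means 64.5% and 47.3%) and in DM (69.2% and 59.9%), and lie close together in Npm1c (58.6% and 56.7%) and Flt3-ITD (64.8% and 63.9%).

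The excess of the promoter-promoter share over the other pairs was 17.1 percentage points in WT (SD 1.31, n = 2), 9.33 in DM (SD 0.0179, n = 2), 1.82 in Npm1c (SD 2.20, n = 2) and 0.871 in Flt3-ITD (SD 3.49, n = 2). Over the 8 libraries its mean was 7.29 points, above 0 in 7 of 8 (exact two-sided sign permutation test, p = 0.0234). The excess of the mean log2 of the score plus 1 was 0.16 (exact sign permutation p = 0.00781, the smallest that 8 signs allow). Against WT it was different by -7.81 points in DM, -15.3 in Npm1c and -16.3 in Flt3-ITD. Each has an exact permutation p of 0.333, the smallest that 2 against 2 libraries can give. A comparison of all 6 mutant libraries with the 2 WT libraries was chosen after these values were seen: the difference was -13.1 points (exact permutation p = 0.0357, the smallest this split allows). At a score of 10 or more the groups lay much closer: the excess was 7.67 and 7.16 points in the WT libraries, 5.81 and 6.15 in DM, 5.48 and 5.31 in Npm1c and 6.77 and 5.12 in Flt3-ITD. There DM did not stand apart from the single mutants, and the mutant difference was -1.64 points (exact permutation p = 0.0357). At a score of 5, the 2 DM libraries exceeded the 4 single-mutant libraries by 7.98 points (exact permutation p = 0.0667, also the smallest possible).

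Which other ends formed the contrast mattered for the difference between mutants and WT. A gene start was held by 2,741 of the 39,183 other ends that were no bait. With only the pairs to these, the excess was 10.6 points in WT, 12.1 in DM, 2.57 in Npm1c and 2.23 in Flt3-ITD, and the mutant difference was -5.01 (exact permutation p = 0.393). With the other-end fragments brought to the same length it was -8.52 (exact permutation p = 0.0714). Within each of the 5,596 baits that held both classes, the excess was 19.2 points in WT, 15.7 in DM, 1.14 in Npm1c and -0.642 in Flt3-ITD, and the mutant difference was -13.8 (exact permutation p = 0.0714). At a score of 5, DM stood above both single mutants under each of these 3 settings, while its place below WT was reversed with gene-start other ends.

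The excess of WT was present at every distance. Under 50 kb it was 16.4 and 20.2 points in the WT libraries, and between 500 and 1000 kb it was 13.6 and 17.1. DM gave 11.6 and 10.6 points under 50 kb and 7.85 and 8.03 in the farthest bin. The Npm1c libraries lay between -2.23 and 4.7 over the 5 bins, and the Flt3-ITD libraries between -3.47 and 3.77. No bin brought a single-mutant library up to the lowest DM library.

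**Figure D2:**
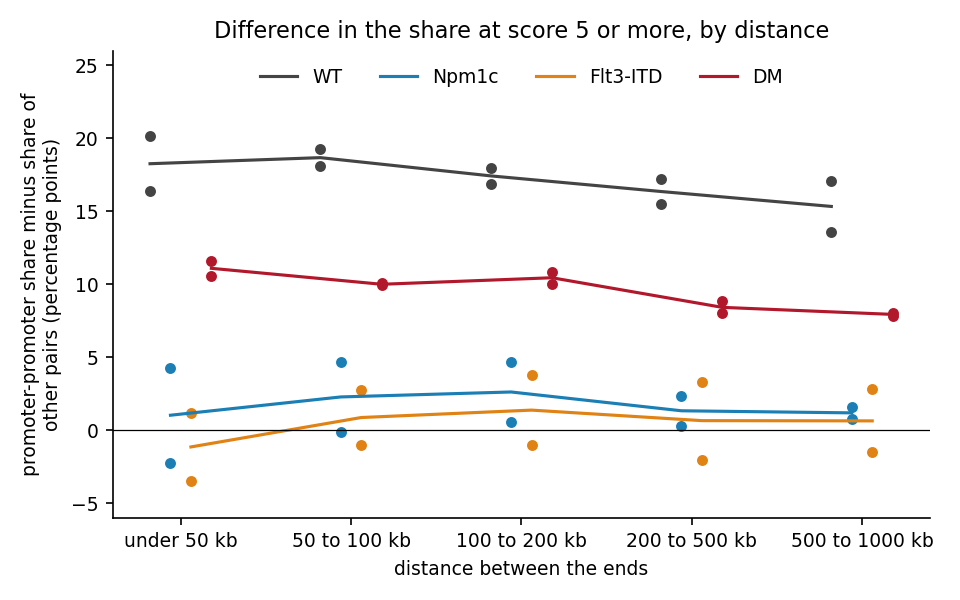
Difference between the share of promoter-promoter pairs and of other pairs at score 5 or more (percentage points) in 5 distance bins; points are libraries and lines join group means. WT lies between 13.6 and 20.2 in all bins and DM between 7.85 and 11.6, above every single-mutant library.

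For 1,556 baits with several pairs of each class, the mean log2 score of the promoter-promoter pairs was set against that of the other pairs of the same bait. The median balance was 0.34 and 0.32 in the WT libraries, 0.14 and 0.05 in Npm1c, 0.16 and 0.01 in Flt3-ITD, and 0.24 and 0.28 in DM (differences of mean log2 of the score plus 1). No single bait passed in limma at an adjusted p under 0.05 in any contrast (0% of baits). At an unadjusted p under 0.05 stood 312 baits for Npm1c against WT, 270 of them lower, 300 for Flt3-ITD, 264 of them lower, and 179 for DM, 119 of them lower. The median difference of the balance from WT was -0.24, -0.25 and -0.05.

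The share of promoter-promoter pairs itself differed from WT by -5.92 points in Npm1c (exact permutation p = 0.667), 0.342 in Flt3-ITD (p = 1) and 4.77 in DM (p = 0.333). These differences depended on scaling: with the libraries quantile normalized, the difference was -5.58 for DM and -12.2 for Flt3-ITD, so that both directions turned. Pairs listed in both directions scored high in DM, a difference that was not tested. In DM 78.3% and 82.0% of those 5,834 pairs scored 5 or more, against 73.1% and 63.3% in WT, 55.9% and 63.2% in Npm1c and 69.0% and 61.2% in Flt3-ITD. Of the 12,901 pairs listed in 1 direction, 64.2% and 64.4% reached 5 in DM and 64.3% and 61.2% in WT. Each direction is listed by a score of 5 or more in both libraries of some group, the threshold counted here. The shares of both subsets thus partly reflect which groups listed the pairs.

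The strongest constant contacts were taken as the 8 pairs, among those with genes at both ends, with the highest minimum over the HSPC libraries. Adamts4, an ADAMTS metalloproteinase gene, was paired with Cfap126, a ciliary protein gene 134 kb away on chromosome 1. Their pair scored 40.7 and 34.1 in WT, 31.9 and 37.5 in Npm1c, 58.7 and 35.1 in Flt3-ITD and 57.3 and 32.0 in DM. Bcl2l1, which encodes the survival protein Bcl-xL, with H13, a signal peptide peptidase gene 169 kb away on chromosome 2, scored 39.7 and 28.5, 31.5 and 35.3, 52.7 and 36.0, and 46.6 and 46.1 in the same order. For Adamts4 the libraries of all groups overlapped. For Bcl2l1 both DM libraries lay above both WT libraries, but the difference did not pass (0.45, SE 0.34, limma adjusted p = 0.49).

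Tspyl4, of a nucleosome assembly protein family, with Rwdd1, 280 kb away on chromosome 10, scored 27.3 and 33.1 in WT, 54.7 and 38.3 in Npm1c, 42.0 and 55.2 in Flt3-ITD and 40.5 and 47.9 in DM. All 6 mutant libraries lay above both WT libraries, but no contrast passed (DM against WT 0.54, SE 0.34, limma adjusted p = 0.41). Fignl1 with Zpbp, the promoters printed first, spanned 349 kb on chromosome 11 (chr11:11807732-11814928 with chr11:11460532-11463278). The pair scored 29.4 and 28.7 in WT, 24.6 and 35.8 in Npm1c, 34.4 and 35.1 in Flt3-ITD, 35.8 and 39.7 in DM, and 27.1 and 31.1 in neutrophils. All 10 libraries held it above 24.

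Smarca5 encodes the ATPase of ISWI chromatin remodelling complexes (chr8:80736516-80743573). With Usp38, a deubiquitinase gene 274 kb away (chr8:81013398-81015761), it scored 29.6 and 23.3 in WT, 31.8 and 41.1 in Npm1c, 40.9 and 65.3 in Flt3-ITD and 30.5 and 30.2 in DM. Both DM libraries lay above both WT libraries, but the difference did not pass (0.20, SE 0.35, limma adjusted p = 0.78).

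The histone pair H2bc9 and H3c7 with H4c6 was the shortest of the 8, at 6.71 kb on chromosome 13 with no gene between. Replication-dependent histone genes are transcribed together in S phase. The pair scored 43.9 and 33.7 in WT, 35.4 and 48.6 in Npm1c, 36.0 and 34.9 in Flt3-ITD and 28.5 and 26.5 in DM. In neutrophils it scored 9.85 and 10.7. Neutrophils lay far below WT HSPCs without overlap, but the difference missed the threshold (-1.81, SE 0.31, limma adjusted p = 0.089). The histone list as a whole did not share this size of difference. Over its 133 pairs shared with neutrophils the median log2 difference was 0.06 (-0.16 after quantile normalization), against 0.16 (-0.12) over all shared members. Oxct2a with Bmp8a (16.0 kb) and Mtap with Ifne (258 kb), both on chromosome 4, completed the 8.

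**Figure D3:**
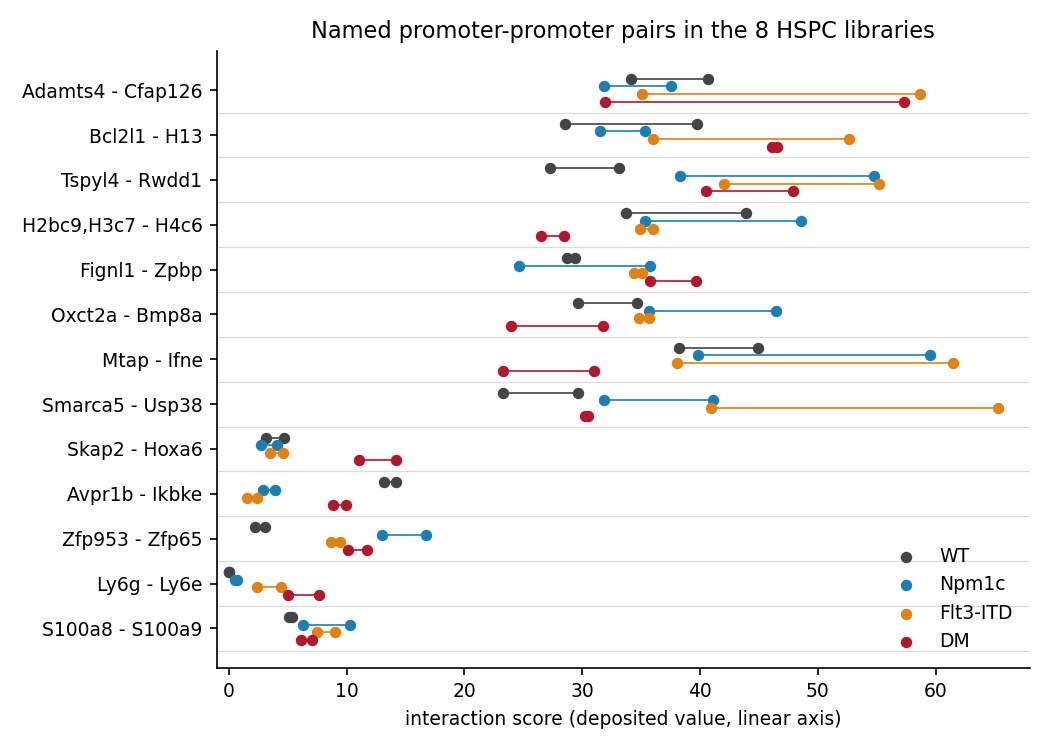
Deposited interaction score (linear axis) of named promoter-promoter pairs; points are the 2 libraries of each HSPC group, joined by a line. The first 8 pairs score above 23 in every library, while Skap2 with Hoxa6 reaches 11.1 and 14.2 in DM and at most 4.64 elsewhere.

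Together the links formed 1,147 separate networks, of which 284 held only 2 fragments. The largest held 95 fragments and 255 links over 4.73 Mb of chromosome 19 (chr19:8588664-13316208). The median fragment had 2 partners, 2,891 fragments (30.9%) had 1, and 476 (5.09%) had 10 or more. Partners of the same fragment were often joined: 34.9% of connected triples were closed, in 9,786 triangles. Among the autosomes and X, chromosome 7 had the highest share of promoter-promoter pairs among pairs under 1 Mb, at 29.9%, and chromosome 12 the lowest, at 16.1%.

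The fragment with the most partners was that of Krtap16-1, in the keratin cluster of chromosome 11, with 40 partners holding 34 genes, most of them keratins and keratin-associated proteins. Zbtb32, a zinc finger repressor gene, had 34 partners, and Tomm40, for the mitochondrial import pore, had 33. Dmkn, Usf2 and Ffar3 had 31, 31 and 29; Dmkn encodes a skin protein, Usf2 an E-box transcription factor and Ffar3 a fatty acid receptor. Zbtb32, Dmkn, Usf2 and Ffar3 lie close together on chromosome 7 (chr7:30596223-30964247), and the partners of Zbtb32 include the other 3, so they are not independent cases.

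For 3 of these 4 fragments DM scored high. Of the 50 pairs of Ffar3, 92.0% and 96.0% reached 5 in the DM libraries, 62.0% and 46.0% in WT, 64.0% and 56.0% in Npm1c and 78.0% and 78.0% in Flt3-ITD. For the 47 pairs of Dmkn the shares were 91.5% and 95.7% in DM and 59.6% and 38.3% in WT. They were 70.2% and 59.6% in Npm1c and 83.0% and 83.0% in Flt3-ITD. For the 49 of Usf2 they were 93.9% and 93.9% in DM and 63.3% and 46.9% in WT. There Npm1c had 44.9% and 59.2% and Flt3-ITD 75.5% and 69.4%. By this share DM stood above all other libraries for each of the 3. By the mean log2 score over its links, Dmkn overlapped between Flt3-ITD (3.13 and 3.11) and DM (3.08 and 3.39). For the 36 pairs of Zbtb32 the shares were 80.6% and 75% in DM and 75% and 66.7% in WT, and the groups met at 75%. Tested as the mean log2 score over the links of a fragment, none passed (limma; Ffar3 0.68, SE 0.17, adjusted p = 0.11; Dmkn 0.64, SE 0.20, adjusted p = 0.16; Usf2 0.57, SE 0.18, adjusted p = 0.17; Zbtb32 0.17, SE 0.16, adjusted p = 0.62).

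Promoters of the Hox genes, which set body pattern and keep progenitors undifferentiated, with Meis1, came up in 19 pairs through 10 of the 26 genes of that list. On average 73.7% of them reached 5 in the DM libraries, against 44.7% in WT, 39.5% in Npm1c and 31.6% in Flt3-ITD. None passed in any contrast. Both DM libraries lay above both WT libraries in 11 of 19 and below in 2; over all 88,421 tested pairs the shares were 32.6% above and 19.4% below. The median log2 difference of DM from WT was 1.00 (0.75 after quantile normalization), against 0.06 (-0.09) over all members. A pair is listed by a score of 5 or more in both libraries of a group, so pairs listed through DM raise these DM values. In 8 of the 19 pairs (42.1%) both DM libraries lay above all 6 others, against 13.3% of all members. How far the listing made the DM values was not tested.

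Skap2 encodes an adaptor protein of leukocyte adhesion, and its bait (chr6:52010940-52014873) reached into the HoxA cluster. With Hoxa6 (chr6:52207514-52213060), 197 kb away, it scored 4.64 and 3.17 in WT, 2.69 and 4.11 in Npm1c, 3.46 and 4.58 in Flt3-ITD and 11.1 and 14.2 in DM. The groups other than DM overlapped and DM stood alone (1.48, SE 0.34, limma adjusted p = 0.098 against WT). Only DM scored 5 or more, so the pair was listed through DM and its place above the others was fixed by the listing. With Hoxa5 the same bait scored 2.62 and 1.90 in WT and 5.68 and 9.28 in DM, while with the adjoining fragment of Hoxa3 and Hoxa7 it scored 5.67 and 6.19 in WT and 5.27 and 7.76 in DM. Snx10, a sorting nexin gene 693 kb from the Hoxa3 and Hoxa7 fragment, scored 3.38 and 2.20 in WT and 12.5 and 9.61 in DM. In the reverse direction it scored 1.81 and 0.87 against 8.37 and 6.38. Both Snx10 entries and the Hoxa5 pair were listed through a mutant group, since WT scored under 5 in each. Tax1bp1 with Hoxa11 scored 11 and 13.9 in WT and 50.4 and 16.8 in DM, so its DM libraries stood far apart.

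Not all Hox pairs were high in DM. Nfe2l3 with the Hoxa3 and Hoxa7 fragment scored 7.12 and 9.67 in WT and 1.25 and 0.993 in DM. In the HoxB cluster, Hoxb5 with Hoxb8 scored 4.45 and 6.33 in WT and 5.15 and 5.53 in DM. The list thus held pairs on either side and pairs near level.

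Granulocyte and monocyte progenitor genes came up in 57 pairs, none called. Both DM libraries lay above both WT libraries in 19 (33.3%) and below in 11 (19.3%), beside 32.6% and 19.4% over all pairs, and the median log2 difference was -0.04 (-0.19 after quantile normalization). Cebpa, the transcription factor that commits progenitors to the granulocyte line, lies 57.5 kb from Cebpg. From the Cebpg bait the pair scored 2.28 and 2.08 in WT, 2.97 and 2.76 in Npm1c, 3.29 and 3.56 in Flt3-ITD and 6.61 and 8.22 in DM. From the Cebpa bait it scored 2.71 and 2.12, 1.55 and 2.37, 2.25 and 3.35, and 7.05 and 7.39. DM stood above the other 6 libraries in both directions (1.40, SE 0.29, and 1.27, SE 0.32; limma adjusted p = 0.081 and 0.11). No other HSPC library reached the score needed for listing in either direction. Both entries were thus listed through DM, and the place of DM above the others was fixed by the listing. Spi1, which encodes PU.1, with Madd (100 kb) scored 2.48 and 3.16 in WT and 6.45 and 9.04 in DM, whereas Mtch2 with Spi1 (240 kb) scored 7.02 and 6.91 in WT and 6.4 and 4.4 in DM.

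Of the 87 pairs of neutrophil genes, 1 was higher in DM than in WT: Ly6g with Ly6e, 199 kb apart on chromosome 15. Of all pairs 0.42% were higher in DM. Ly6g encodes the surface marker of mouse neutrophils and Ly6e a related anchored protein. The pair was listed at 0 in both WT libraries, scored 0.663 and 0.494 in Npm1c, 2.42 and 4.39 in Flt3-ITD, 7.67 and 5.02 in DM and 5.30 and 6.52 in WT neutrophils. It passed for DM (2.85, SE 0.35, limma adjusted p = 0.021) and for neutrophils (2.78, SE 0.30, adjusted p = 0.024), both against WT HSPCs, which the 2 comparisons share. Among the HSPC groups only DM scored 5 or more, so the pair was in the HSPC list through DM. Once pairs at 0 in both libraries of a group compared were left out, as this one is, limma called 0 members for DM, with 2,708 at an unadjusted p under 0.05. S100a14 with S100a8, of the calprotectin gene, scored 2.06 and 2.56 in WT and 8.71 and 7.38 in DM. Its WT scores were under 5, so a mutant group brought it into the list. S100a8 with S100a9 scored 5.34 and 5.10 in WT and 6.12 and 7.03 in DM. Both DM libraries lay above both WT libraries in 39 of the 87 pairs (44.8%) and below in 17 (19.5%), beside 32.6% and 19.4% over all tested pairs.

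Erythroid pairs leaned the other way. Of 63, both DM libraries lay below both WT libraries in 28 (44.4%) and above in 9 (14.3%), and none was called. Over all tested pairs the shares were 19.4% below and 32.6% above. The median log2 difference was -0.28 (-0.44 after quantile normalization). All 5 pairs from the bait of Rhag, a gene of the red cell Rh complex, had lower scores in both DM libraries than in both WT libraries. Car2, the carbonic anhydrase of red cells, with E2f5 (312 kb) scored 5.37 and 8.30 in WT and 1.84 and 1.38 in DM. Klf1, the erythroid master regulator, with Farsa (41.8 kb) scored 16.0 and 16.0 in WT, 9.73 and 8.84 in Npm1c, 10.9 and 8.29 in Flt3-ITD and 10.6 and 7.49 in DM. The share of erythroid cells in each library is unknown and its part in these values was not tested.

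Other lists held no more than 3 called pairs in any one contrast. The 295 histone pairs had list genes at both ends in 61.5% of their links, and 81.0% of them reached 5 in Flt3-ITD against 69.3% in WT. Olfactory receptor pairs, 504 in number with both ends on the list in 46.1% of links, reached 5 in 49.6% in DM and 56.2% in WT, a difference that was not tested; their median log2 difference was -0.08. Chemokine and cytokine receptor pairs (156) reached 5 in 75.3% in DM and 54.8% in WT. Among pairs whose genes have the symbols Zfp, Zkscan or Zscan (807), Zfp953 with Zfp65, 372 kb apart on chromosome 13, rose in Npm1c: it scored 2.26 and 3.05 in WT, 16.7 and 13 in Npm1c, 8.66 and 9.42 in Flt3-ITD and 11.8 and 10.1 in DM (Npm1c against WT 2.12, SE 0.31, limma adjusted p = 0.045).

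**Figure D4:**
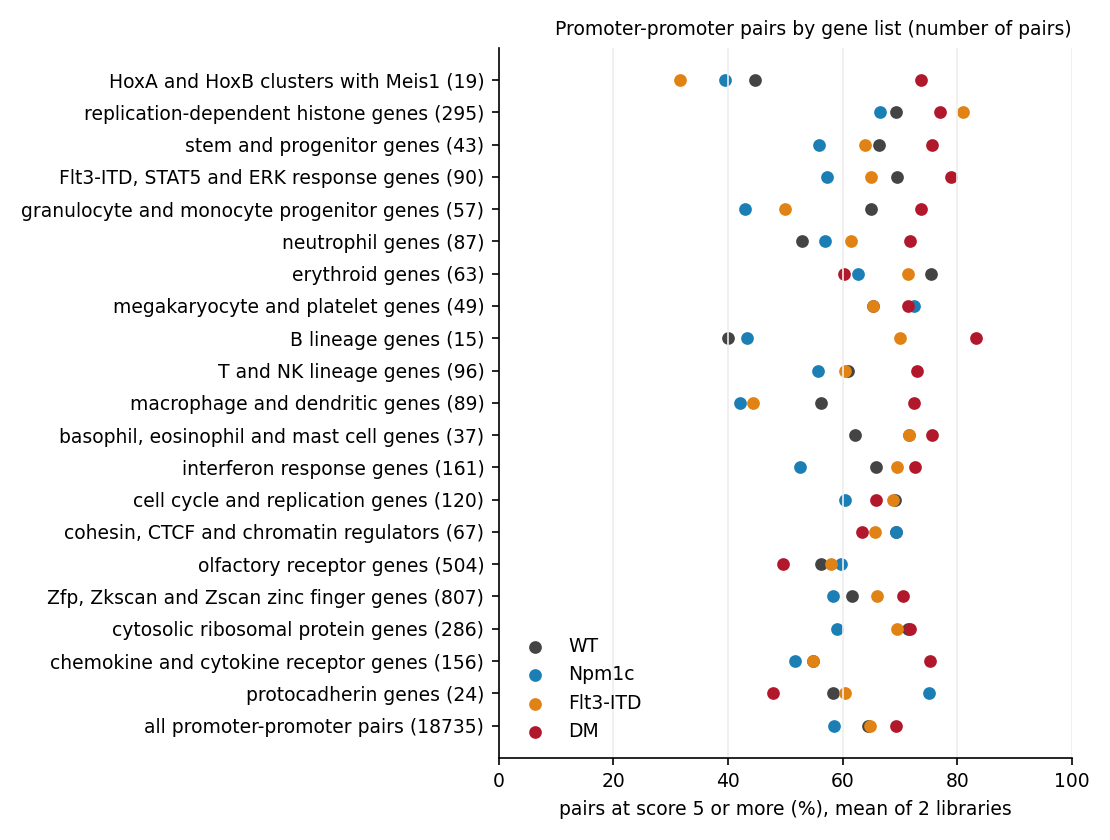
Mean percent of promoter-promoter pairs at score 5 or more in the 4 HSPC groups, for 20 gene lists and all 18,735 pairs; points are means of 2 libraries and the number of pairs is in brackets. DM is the highest group for the Hox list (73.7%), but also over all pairs (69.2%) and for other lists such as the B lineage list (83.3%). It is the lowest for the erythroid list (60.3%), and also for the olfactory receptor (49.6%), protocadherin (47.9%) and cohesin, CTCF and chromatin regulator (63.4%) lists. The lists have between 15 and 807 pairs and share some of them. Pairs were listed by the same score of 5 or more, so a group's share partly reflects which pairs it listed.

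Single promoter-promoter pairs were tested with limma on log2 of the score plus 1 over all 88,421 pairs. In Npm1c against WT, 14 members rose and 7 fell at an adjusted p under 0.05. Of all pairs 0.31% were called, 0.225% higher and 0.0848% lower. In Flt3-ITD 28 rose and 7 fell; of all pairs 0.568% were called, 0.477% higher and 0.0905% lower. In DM 31 rose and 16 fell; of all pairs 0.576% were called, 0.42% higher and 0.156% lower. Of the 18,735 members 0.112%, 0.187% and 0.251% were called, against 0.114%, 0.218% and 0.347% of the pairs under 1 Mb that end outside a bait. Quantile normalization moved the median of all pairs by more than 0.1, from 0.12, 0.23 and 0.16 to about 0 (-0.01 in each), and then gave 8 higher and 7 lower, 13 and 20, and 12 and 14 members. The split between increases and decreases thus depended on the scaling. A group brings pairs into the list by its own score. With only pairs that passed in a group outside the contrast, limma called 0 members in each of the 3 contrasts, with 1,187, 1,138 and 1,356 at an unadjusted p under 0.05. Leaving out any 1 library of a contrast also gave 0 calls.

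Many called members rested on exact zeros. A group was at 0 in both libraries in 11 of the 21 Npm1c calls, 20 of the 35 Flt3-ITD calls and 24 of the 47 DM calls. An exact 0 can be a failed estimate, and without such pairs limma called 0 members in the 3 contrasts, with 2,017, 1,798 and 2,708 at an unadjusted p under 0.05. In 16 of the 24 DM calls the other end was at 0 in every pair listed with it in that group, and these came from only 5 fragments.

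The fragment of Tssk4, a testis kinase gene (chr14:55650061-55655950), was the clearest case. As other end it was listed in 5 pairs, all at 0 in the 6 WT, Npm1c and Flt3-ITD libraries. With Dhrs1 and Nop9, 90.1 kb away, it scored 17.8 and 19.5 in DM and 15.3 and 24.3 in neutrophils (DM 4.29, SE 0.28, limma adjusted p = 0.013). With Tinf2, a telomere protein gene, it scored 10.9 and 9.34 in DM. As bait the same fragment was not at 0 in any group: the median over its 2 pairs was 4.39 and 3.54 in WT and 5.02 and 6.70 in DM. The zeros thus stood only in the entries with this fragment as other end.

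The fragment of Alyref, an mRNA export factor, and Anapc11, an anaphase complex subunit (chr11:120593760-120606073), gave the same picture in WT. All 6 pairs with it as other end were at 0 in both WT libraries and in none of the mutant groups. Mrpl12 with it scored 5.29 and 5.36 in Npm1c, 4.98 and 4.7 in Flt3-ITD and 5.05 and 7.74 in DM, and as bait it had medians of 4.7 and 4.19 in WT. Lamtor4, for the lysosomal Ragulator complex, was at 0 as other end in all 4 of its pairs in DM and in no other group. A430033K04Rik with Lamtor4 was at 0 in both DM libraries, but from the Lamtor4 bait the same link scored 5.94 and 7.46 there. For Wdr53 all 5 pairs were at 0 in Npm1c alone. The fragment of Cdca3, a mitotic entry factor gene, and Usp5 (chr6:124827772-124833403) was at 0 as other end in all 23 of its listed pairs in WT and in none of the mutant groups, whereas none of its 39 pairs as bait was at 0 in WT.

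Some called pairs had nonzero scores throughout. Krtap16-1 with Krt28, 608 kb apart on chromosome 11, rose in Npm1c: it scored 1.52 and 1.08 in WT, 14.4 and 16.2 in Npm1c, 10.6 and 9.36 in Flt3-ITD and 5.54 and 5.89 in DM (2.83, SE 0.30, limma adjusted p = 0.012). Syce1 with Cd163l1, 569 kb apart, rose in Flt3-ITD and DM, from 0.435 and 0.0829 in WT to 7.84 and 10.4 and to 7.86 and 5.89 (3.01, SE 0.36, limma adjusted p = 0.014, and 2.65, SE 0.36, adjusted p = 0.027). Olfr643 with Olfr628, 327 kb apart, fell in DM, from 5.73 and 6.51 to 0.676 and 0.730 (-2.06, SE 0.32, limma adjusted p = 0.043). In each of these the libraries of the groups compared did not overlap, which held for every called member of the mutant contrasts with WT and was a condition for naming. These pairs too no longer passed in the fit without pairs at 0 in both libraries of a group.

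Avpr1b, a vasopressin receptor gene, with Ikbke, which encodes an innate immune kinase, lay 315 kb apart on chromosome 1. The pair scored 14.2 and 13.2 in WT, 2.88 and 3.90 in Npm1c, 1.57 and 2.37 in Flt3-ITD, 9.95 and 8.86 in DM and 7.88 and 8.60 in neutrophils. From the Ikbke bait it scored 8.99 and 6.95, 3.35 and 3.05, 1.57 and 2.18, and 6.70 and 5.16 in the HSPC groups. Both directions were high in WT and DM and low in the single mutants. It fell in Flt3-ITD (-2.32, SE 0.31, limma adjusted p = 0.024), missed the threshold in Npm1c (-1.75, adjusted p = 0.092) and passed for the interaction (3.57, SE 0.44, adjusted p = 0.033).

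The interaction contrast adds WT to DM and takes away both single mutants, so a value of 0 means that the 2 alleles add up on the log2 scale. It was positive in 16 members and negative in 28 at an adjusted p under 0.05. Of all pairs 0.564% passed, 0.145% positive and 0.42% negative. The members split 36 positive and 21 negative after quantile normalization. Zfp28 with Zfp954, 732 kb apart on chromosome 7, was negative (-3.90, SE 0.62, limma adjusted p = 0.045): the single mutants scored 6.69 to 11.9, WT 3.17 and 1.57, and DM 1.38 and 0.199.

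To gather evidence over several contacts, the mean log2 score over the links of a promoter fragment was tested for the 2,112 fragments with at least 5 links, a test added after the pair results were known. In DM 11 fragments were higher than in WT (0.521% of fragments) and 5 were lower (0.237%), 0.758% in all. In Npm1c 1 was higher and 1 lower (0.0473% each, 0.0947% in all). In Flt3-ITD 3 were higher (0.142%) and 0 lower (0%). For the interaction 2 were positive (0.0947%) and 7 negative (0.331%), 0.426% in all. DM calls fell to 2 with the replicate number as a block, to 7 after quantile normalization and to 0 with pairs listed by an outside group.

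Ccl3 and Ccl4, genes of inflammatory chemokines on 1 fragment of chromosome 11 (chr11:83647525-83653870), had mean log2 scores over 5 links of 1.94 and 1.72 in WT, 1.96 and 1.69 in Npm1c, 2.11 and 2.02 in Flt3-ITD and 3.02 and 3.10 in DM (1.23, SE 0.18, limma adjusted p = 0.038). One of its links, with the chemokine gene Ccl9 75.1 kb away, scored 3.43 and 4.11 in WT, 9.4 and 10 in DM and 8.73 and 8.82 in neutrophils. WT was under 5 in this link, so it was in the HSPC list through a mutant group. Oscar, for an immunoglobulin-like receptor of osteoclasts and myeloid cells, had 1.87 and 1.15 in WT and 2.86 and 2.91 in DM (1.38, SE 0.24, adjusted p = 0.045 in limma). The fragment of Ltbr, the lymphotoxin receptor gene, and Scnn1a had 12 links, the most among those called, with 1.89 and 1.80 in WT and 2.87 and 2.80 in DM (0.99, SE 0.16). Rab37, Kif19a, Dse, Olfr76, Olfr1076 and Ms4a13 were higher by 0.95 to 1.23, and the remaining higher fragments were those of Tssk4 and of Alyref with Anapc11, which hold the zeros described above.

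Rhag was lower in DM: its 5 links had means of 3.04 and 3.21 in WT, 3.13 and 3.02 in Npm1c, 3.01 and 2.99 in Flt3-ITD and 2.06 and 2.32 in DM (-0.94, SE 0.17, limma adjusted p = 0.046). Lgi3 differed by -0.99. Olfr628, Olfr639 and Olfm5, which lie in one stretch of chromosome 7 (chr7:103730994-104173612), differed by -1.42, -1.13 and -1.21. Olfr639 had 2.89 and 2.99 in WT and 1.61 and 2.02 in DM. All 3 lay below both WT libraries in both DM libraries.

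**Figure D5:**
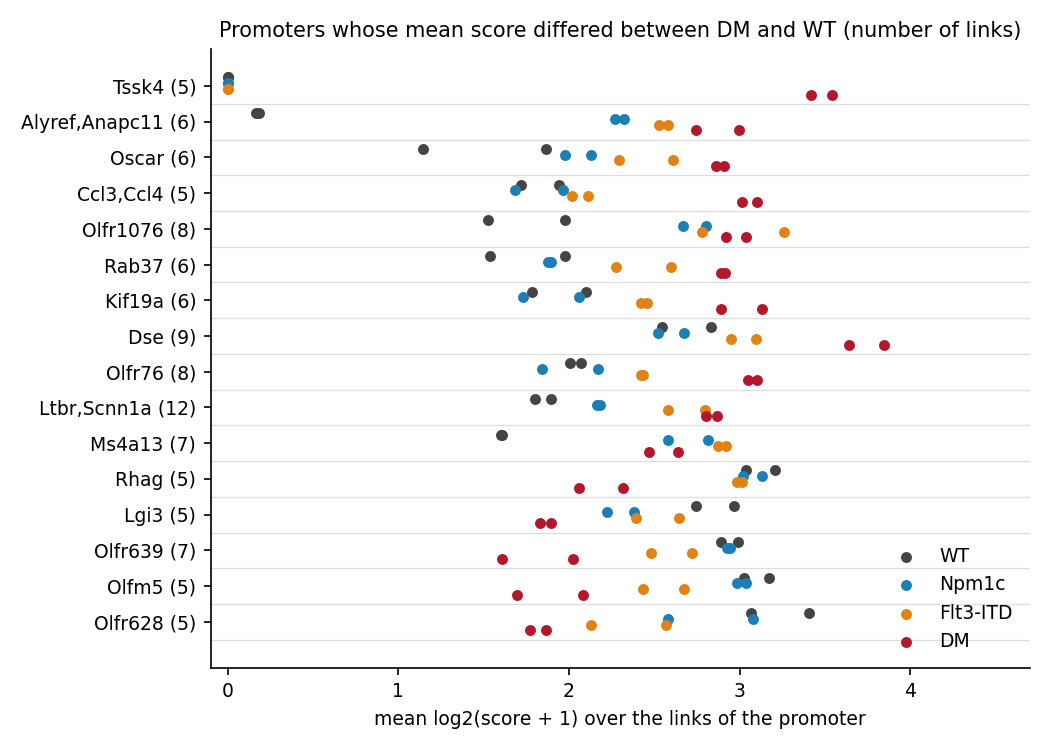
Mean log2 of the score plus 1 over the links of each promoter fragment that passed in DM against WT, with the number of links in brackets; points are the 8 HSPC libraries. Tssk4 is at 0 outside DM, Ccl3 and Ccl4 reach 3.02 and 3.10 in DM, and Rhag falls to 2.06 and 2.32.

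WT neutrophils listed 7,281 promoter-promoter pairs under 1 Mb, 29.2% of their pairs in that range. Of these, 4,703 (64.6%) were also in the HSPC list, against 51.1% of the other neutrophil pairs in that range. By the definition used here, the other end of a promoter-promoter pair was a bait in the HSPC list. Such an end already had a listed HSPC contact, which the ends of the other pairs need not have. How far this made the difference between the shares was not tested. Of the members that passed in WT HSPCs, 34.5% were in the neutrophil list, against 22% of the pairs ending outside a bait, which was the same with the distances made equal. Members listed in both directions were in the neutrophil list more often (34.0%) than those listed in 1 (21.1%). Among the shared pairs limma called 15 members higher in neutrophils than in WT HSPCs and 0 lower, with 668 at an unadjusted p under 0.05. Of all shared pairs 0.206% were higher and 0% lower. Only pairs in the neutrophil list were compared, whereas WT HSPCs could be at 0 in a pair listed through another HSPC group. Higher and lower were thus not equally open to a call. All 15 were at 0 in both WT HSPC libraries, and they ended on 5 fragments, among them Tssk4 and Alyref with Anapc11. Without such pairs, or after quantile normalization, limma called 0, with 653 and 712 at an unadjusted p under 0.05.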

How the data were processed

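Promoter-capture Hi-C libraries (HindIII; 39,684 probes for 22,047 promoters, per the labels) were analysed from the deposited tables, 1 per library. The deposited score is the authors' interaction score per pair, never negative and not a count; what it is relative to, the aligner and the caller are not given in the sources used here. The distance in bp, per the file headers, is another quantity. The build is mm10, per the submitters' processing notes. Depth is unknown, so the spread between 2 libraries a group limits precision.

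A gene was assigned to a fragment by its RefSeq start (GRCm38.p6) or, lacking a promoter entry, by either end of the gene. Linear models were fitted in R 4.3.3 with limma 3.58.1, two-sided with moderated variances and p-values adjusted by Benjamini-Hochberg, on log2(score + 1) over 88,421 autosomal and X pairs and 8 HSPC libraries; neutrophils were compared with WT over 14,051 shared pairs. Pairs outside the autosomes and X were not tested. Shares used exact permutation tests over libraries. The script was tested on simulated data.

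Named pairs were the 8 with the highest minimum score, up to 6 called pairs in each direction with the largest difference and no overlap, the 6 fragments with most partners, and for each list its strongest and its called pairs. Other list pairs and all fragments tested were chosen after their values were seen. Members and lists were chosen with earlier results of these data known. Some named pairs are not reported here.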

Additional observations from a re-analysis of the deposited data

Results flagged for a closer look

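The double mutant departed from the sum of the single mutants in 44 promoter-promoter pairs by the interaction term of limma, 16 positive and 28 negative. Of all pairs 0.564% passed, 0.145% positive and 0.42% negative. After quantile normalization the members split 36 positive and 21 negative. Of the 44, 18 had a group at 0 in both libraries. Without such pairs limma called 0, and with a replicate block also 0, with 2,409 and 2,377 at an unadjusted p under 0.05.

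Over promoter fragments with at least 5 links, the interaction passed in 9 (0.426% of fragments, 0.0947% positive and 0.331% negative). Tssk4 (3.48, SE 0.22) and Wdr53 (2.59, SE 0.33) were positive, and both hold groups at 0. Olfr382 (-1.96, SE 0.25, 11 links) and Olfr583 (-1.86, SE 0.30, 14 links) were negative: Olfr583 had mean log2 scores of 1.91 and 1.62 in WT, 2.93 and 2.59 in Npm1c, 2.69 and 3.01 in Flt3-ITD and 2.13 and 1.85 in DM.

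In the excess of the promoter-promoter share over other pairs, the interaction (WT plus DM, less both single mutants) was 23.8 percentage points at a score of 5 and 2.06 at a score of 10. This difference was not tested.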

How the results depend on the processing

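The files give no read depth, so precision rests on 2 libraries a group, and a group's pairs enter the list through its own scores. The 335 values of named pairs and fragments under an alternative that kept their side of the threshold stand against 681 that no longer passed; none changed sign.

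The difference in the share of members at 5 or more from WT changed sign for Npm1c at a score of 10 (0.857 points), for Flt3-ITD under 500 kb (-1.04) and after quantile normalization (-12.2), and for DM after quantile normalization (-5.58); without 1 library it ranged from -9.37 to -2.47 (Npm1c), -2.25 to 2.93 (Flt3-ITD; -2.25 without WT replicate 2 and -1.79 without Flt3-ITD replicate 1) and 2.18 to 7.36 (DM). The excess over other pairs in 8 libraries was 3.91 points with pairs passing in 2 groups and 8.84 within a bait, neither past the threshold. With 1 replicate number left out it was 6.52 to 8.06 (0.152 to 0.166 for mean log2 scores), and there the sign test cannot reach the threshold. The difference of 6 mutant from 2 WT libraries no longer passed with gene-start other ends (-5.01; log2 -0.0491), length standardized (-8.52; log2 -0.0919) and within a bait (-13.8; log2 -0.17); without 1 library it was -14.2 to -12.0 (log2 -0.182 to -0.140), and without either WT library it cannot reach the threshold.

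Same-numbered libraries of different groups were not paired (correlations of deviations from -0.0124 to 0.0613 over all pairs). With the replicate block, member calls were 11 (Npm1c), 23 (Flt3-ITD), 26 (DM), 0 (interaction) and 15 (neutrophils), and fragment calls 2, 1, 2 and 4 in the HSPC contrasts. Member calls under 500 kb were 9, 15 and 25 for Npm1c, Flt3-ITD and the interaction. With log2(score + 5) they were 1 (Npm1c), 1 (DM), 0 (interaction) and 0 (neutrophils). Quantile normalization gave 26 for DM and 0 for neutrophils. With pairs listed by an outside group they were 0 for Npm1c, Flt3-ITD and DM; fitted on only the 4 libraries compared they were 0 for Npm1c and DM; with pairs passing in 2 groups they were 6 for the interaction and 0 for neutrophils. Without pairs at 0 in both libraries of a group they were 0 in all 5 contrasts. Leaving out any 1 library gave 0 to 0 calls for each mutant against WT, 0 to 4 for the interaction and 0 to 133 for neutrophils.

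Fragment calls for Npm1c, Flt3-ITD, DM and the interaction were 2, 3, 16 and 9. With log2(score + 5) they were 1, 1, 5 and 20; quantile normalized 1, 7 and 57 for the last 3; with at least 3 links 8, 6 and 7 for the first 3; with at least 10 links 0, 14, 1 and 34; without pairs at 0 they were 0, 1, 11 and 1; with pairs listed by an outside group 1 for Npm1c and 0 for DM; with pairs passing in 2 groups 5 for the interaction. Leaving out 1 library gave 3 to 67, 1 to 6, 3 to 10 and 1 to 95. The cause of these changes was not tested.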
